A study of Mus musculus with 7 samples.

Results

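The regions described here are 9151 windows of 10 kb on the mouse autosomes in which the 5-hydroxymethylcytosine (5hmC) signal was low in 2 of the 4 Tet2 CKO libraries, replicates 2 and 3. In each of them these 2 libraries lay at least 3-fold below the lowest of the other 5 libraries. They were taken from 226979 windows that met the count minimum, of which they made up 4.03%, and they covered 91.5 of 2270 Mb. They are called low windows here. The values of all 7 libraries chose them, so the low level of the 2 libraries is a description and carries no test.

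The series profiles hippocampus DNA of unstressed C57BL/6 mice by capture with a 5hmC antibody and sequencing. It holds 4 libraries of Tet2 CKO mice, conditional knockouts of Tet2, and 3 libraries of wild-type (WT) mice. The promoter or cell type that drives the Cre of the knockout, and the age of the mice, are not given in the labels, and nothing there says that each library is a separate animal. Coordinates are those of the deposited table, build mm9. No mm9 genome or gene annotation was at hand, so the windows are given without gene names and without sequence, and the knockout was not checked at the Tet2 gene itself.

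5hmC arises when TET dioxygenases, among them TET2, oxidise 5-methylcytosine in DNA. It is abundant in brain, where neurons carry it in the bodies of active genes and at enhancers, and it is sparse in silent and repeat-rich DNA. Antibody capture reports each window's share of a library's reads, not the amount of 5hmC in the cell. In tissue DNA, fewer cells with the mark and less of the mark per cell cannot be told apart.

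Library depth ran from 26134505 to 49414761 reads, and 11146988 to 28885986 autosomal reads remained after bins with a mean raw count above 100 were dropped. Levels are given as CPM, read counts scaled to each library's total of those autosomal reads. Tet2 CKO replicates 2 and 3 stood apart from the other libraries before any window was chosen. The bins with a mean count above 100 held 69.8% and 74.1% of their reads, against 29.8% to 54.3% in the other 5 libraries. The share of all 500 bp bins with a read was 35.6% and 38.4% in them, against 49.6% to 64.2% in the other 5. WT replicate 1 stood apart the other way, with 29.8% of its reads in those bins, 64.2% of bins with a read and 28885986 autosomal reads kept. In Tet2 CKO replicates 1 and 4 and WT replicates 2 and 3 these values were 49.6% to 54.3%, 49.6% to 55.6% and 12191637 to 14433675. The part of these library differences in the low windows was not tested.

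The low windows held 0.881% of the autosomal reads of Tet2 CKO replicate 2 and 0.986% of those of replicate 3. They held 5.78% in Tet2 CKO replicate 1, 5.60% in Tet2 CKO replicate 4, and 8.27%, 5.58% and 5.39% in WT replicates 1, 2 and 3. The other 2 Tet2 CKO libraries thus lay with WT replicates 2 and 3, and WT replicate 1 lay above all of them. The median low window had 0.897 CPM in Tet2 CKO replicate 2 and 0.995 CPM in replicate 3, against 5.98 and 5.81 CPM in Tet2 CKO replicates 1 and 4. In WT replicates 1, 2 and 3 the median was 8.07, 5.74 and 5.61 CPM. Over all 226979 windows the medians were 2.78, 2.74, 3.90 and 3.94 CPM in Tet2 CKO replicates 2, 3, 1 and 4, and 3.15, 3.86 and 3.95 CPM in WT replicates 1, 2 and 3. The low windows are therefore places where 5 libraries were richer than their own median, by 1.42 to 2.56 times, and 2 were poorer.

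**Figure D1:**
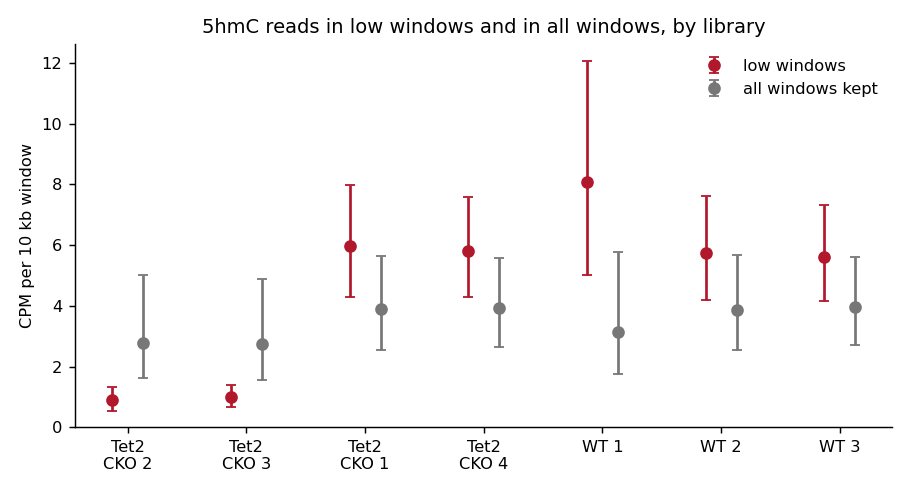
Median CPM per 10 kb window in each library for the 9151 low windows (red) and all 226979 windows kept (grey), with bars from the lower to the upper quartile. The low windows sit near 0.9 to 1.0 CPM in Tet2 CKO 2 and 3 and above the grey median in the other 5 libraries, highest in WT 1 at 8.07 CPM.

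The depth behind a single window was modest. The median low window held 10 reads in Tet2 CKO replicate 2 and 12 in replicate 3, against 75 and 81 reads in Tet2 CKO replicates 1 and 4, and 233, 70 and 81 reads in WT replicates 1, 2 and 3. In 3944 low windows both Tet2 CKO replicate 2 and replicate 3 had at least 10 reads. A library had 0 reads in 293 low windows for Tet2 CKO replicate 2 and in 147 for replicate 3, and both had 0 in 16. The mean CPM of the 2 libraries was 0.152 of the mean of the other 5 in the median low window, and from 0.0885 to 0.214 between the 10th and 90th percentiles of the low windows. In the median of all windows the same ratio was 0.745.

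Each of the 2 libraries was also low in windows chosen without it, with the other 5 libraries serving both the choice and the comparison. When windows were chosen by Tet2 CKO replicate 3 alone, 21395 met the same rule, and Tet2 CKO replicate 2, which that choice did not use, lay below all 5 other libraries in 92.6% of them, against 43.6% of all windows. When 24815 windows were chosen by Tet2 CKO replicate 2 alone, replicate 3 lay below all 5 in 93.0%, against 44.3% of all windows. The left-out library met the 3-fold bound itself in 42.8% of the windows for replicate 2 and in 36.9% for replicate 3, against 10.9% and 9.43% of all windows. Alternate 500 bp bins gave a second reading from reads the choice had not used. Among 9837 windows chosen on the even-numbered bins, the mean of Tet2 CKO replicates 2 and 3 over the mean of the other 5 libraries was 0.131 in the bins that chose them and 0.207 in the odd-numbered bins (median over windows). The median of that ratio over all windows was 0.739 in the odd-numbered bins. Of these windows, 90.8% still had both libraries below all 5 others in the odd-numbered bins, and 33.4% met the 3-fold bound again. The 3-fold size of a single low window is thus partly set by the choice, while the direction remained in most of them.

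Each low window is made of 20 bins of 500 bp, and the choice of windows with few reads in Tet2 CKO replicates 2 and 3 also fixes that few of their bins hold a read. The values per bin are a description of these windows and do not show how a loss is spread. A read was present in 20.3% of the bins of low windows in Tet2 CKO replicate 2 and in 25.4% in replicate 3, against 70.5% and 71.6% in Tet2 CKO replicates 1 and 4, and 89.1%, 69.0% and 74.5% in WT replicates 1, 2 and 3. Over all windows the shares were 39.2% and 42.4% in Tet2 CKO replicates 2 and 3, against 55.8% to 72.2% in the other 5 libraries. The median low window had reads in 4 bins in Tet2 CKO replicate 2 and in 5 in replicate 3, against 14 to 19 bins in the others. The richest bin held a median of 40% and 33.3% of the window's reads in Tet2 CKO replicates 2 and 3, against 15.2% to 17.9% in the other 5 libraries. Over all windows these medians were already 29.7% and 28.6%, against 18.6% to 21.1%, and few reads per window raise this share by counting alone.

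Low windows occurred on all 19 autosomes and were most frequent on chromosome 11. They made up 5.17% of the windows kept on chromosome 11, 4.84% on chromosome 9 and 4.81% on chromosome 17. The share was lowest on chromosome 3, at 2.74%, and on chromosomes 16 and 1, at 3.02% and 3.24%. The largest number, 740, lay on chromosome 2, a long chromosome. Along the chromosomes the share was uneven as well. It was 6.71% in the last 10% of the chromosome length and 2.20% in the first 10%, which in the mouse lies next to the centromere. The last 10% was above the chromosome's own average on 17 of 19 chromosomes, and the first 10% on 2. When windows were chosen with any 1 of the 7 libraries left out, the share in the last 10% (6.87% to 16.6%) again exceeded that in the first 10% (2.43% to 7.01%) in each of the 7 choices. These 7 choices share most of their libraries and windows, so they are not independent of each other or of the main list. No test over libraries applies to these positions, which come from 1 list. The rule also favours windows where the other libraries are rich, and the part of level in these positions was not tested.

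**Figure D2:**
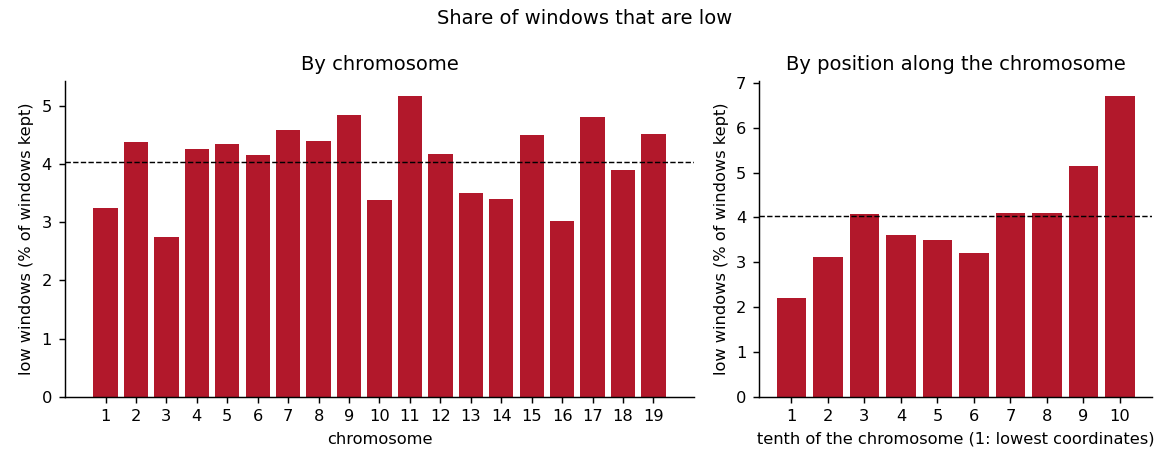
Low windows as a percentage of the windows kept, by chromosome (left) and in 10 equal steps of the chromosome length over all autosomes (right), with the dashed line at the overall 4.03%. Chromosome 11 is highest at 5.17% and chromosome 3 lowest at 2.74%, and the last step reaches 6.71% against 2.20% in the first.

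Low windows gathered in some megabases and were missing from others. Of 2417 blocks of 1 Mb with a window kept, 1729 held at least 1 low window and 688 held none. The 264 blocks with 10 or more were 10.9% of the blocks and held 36.7% of the low windows. The richest block, on chromosome 8 at 124000001 to 125000000, held 25 low windows among its 100. Its mean was 2.72 and 2.99 CPM per window in Tet2 CKO replicates 2 and 3, against 8.36 and 8.02 CPM in Tet2 CKO replicates 1 and 4, and 14.8, 8.25 and 7.78 CPM in WT replicates 1, 2 and 3. The mean of the block, low windows included, was thus lower in the 2 libraries than in each of the other 5. The block was picked for its low windows, whose values enter this mean, and its remaining windows were not measured apart. The next blocks, on chromosome 11 at 35000001 to 36000000 and at 118000001 to 119000000, held 23 and 22 low windows.

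Most low windows stood alone as 10 kb units. Runs of touching low windows, called domains here, numbered 7941, and 6936 of them were a single window. There were 843 domains of 20 kb, 128 of 30 kb, 27 of 40 kb, 5 of 50 kb and 2 of 60 kb, which was the longest. Domains of 2 or more windows numbered 1005 and held 24.2% of the low windows. A low neighbour was nevertheless more frequent beside a low window than beside windows at large. A low window lay within 10 kb of 24.2% of the low windows and of 7.57% of all windows, and within 100 kb of 77.0% of the low windows and of 40.7% of all. Joined across gaps of up to 20 kb, low windows formed 1671 groups of 2 or more, the longest of which spanned 230 kb on chromosome 4 at 153760001 to 153990000 and held 13 low windows.

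In the 8 longest domains WT replicate 1 was the highest library and Tet2 CKO replicates 2 and 3 were the lowest, as the rule fixes. The order of the other 4 varied. The 60 kb domain on chromosome 1, at 62780001 to 62840000, had 1.05 and 0.677 CPM per window in Tet2 CKO replicates 2 and 3, against 7.20 and 8.05 CPM in Tet2 CKO replicates 1 and 4, and 9.55, 6.999 and 6.99 CPM in WT replicates 1, 2 and 3. These levels rest on 70 and 49 reads in Tet2 CKO replicates 2 and 3, against 512 to 1655 reads in each of the other 5. By the definition of a domain the 2 libraries are low in each of its 6 windows. The means of the other 5 libraries over the domain ran from 6.99 to 9.55 CPM. The 60 kb domain on chromosome 4, at 45440001 to 45500000, had 1.45 and 1.85 CPM in Tet2 CKO replicates 2 and 3, against 9.67 and 9.24 CPM in Tet2 CKO replicates 1 and 4, and 16.4, 8.69 and 7.68 CPM in WT replicates 1, 2 and 3. Here WT replicate 1 also stands well above the other 4. The 5 domains of 50 kb lay on chromosome 17 at 31970001 to 32020000 and at 12390001 to 12440000, on chromosome 14 at 26440001 to 26490000, on chromosome 11 at 5860001 to 5910000 and on chromosome 19 at 48030001 to 48080000. The last of the 8 was 1 of 27 domains of 40 kb, taken because its ratio to the lowest other library was the smallest among them, and lay on chromosome 2 at 157680001 to 157720000. Over the 8 domains Tet2 CKO replicates 2 and 3 ranged from 1.01 to 1.61 and from 0.677 to 1.85 CPM, against 5.59 to 10.8 and 6.51 to 9.69 CPM in Tet2 CKO replicates 1 and 4. WT replicates 2 and 3 ranged from 5.73 to 10.05 and from 5.79 to 9.01 CPM, and WT replicate 1 from 8.63 to 16.7 CPM, the highest library in 8 of the 8.

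**Figure D3:**
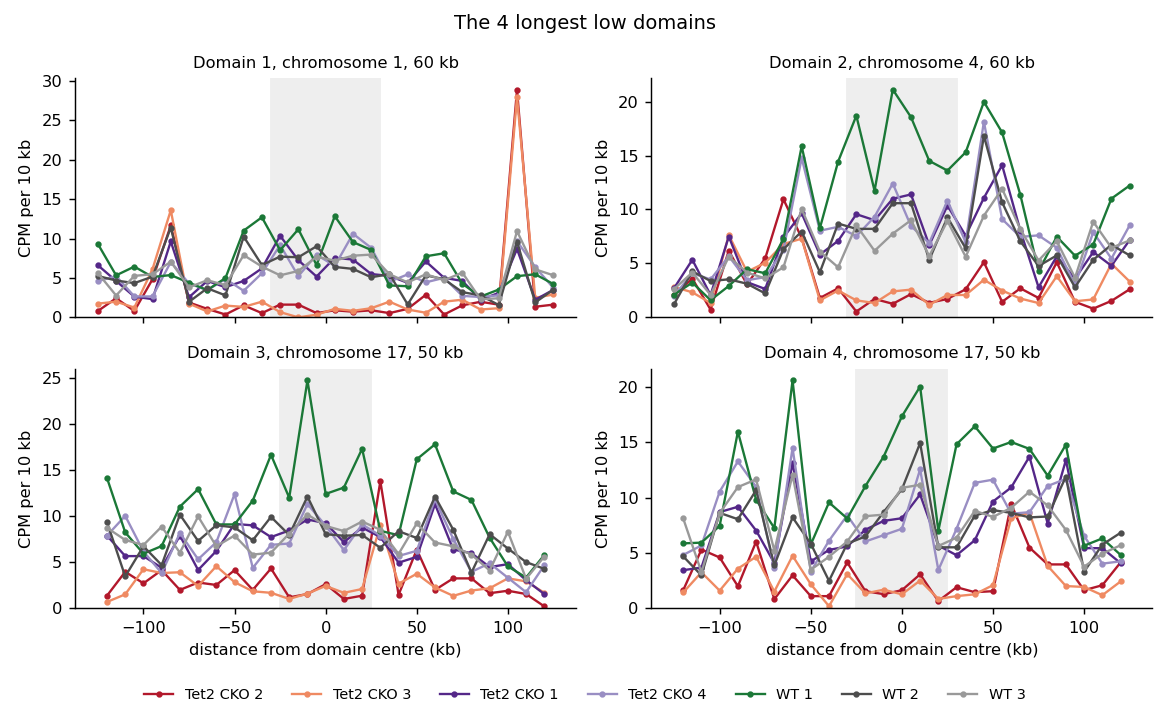
CPM per 10 kb window by distance from the domain centre for the 4 longest low domains (grey band), 1 line per library. Inside the bands Tet2 CKO 2 and 3 run along the bottom, between 0.677 and 1.85 CPM on average, while in the flanks they return to the level of the other libraries in single windows.

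The surroundings of low windows were lower in the same 2 libraries over a long distance. Among neighbours at 10 kb that were not low windows themselves, the median CPM was 0.774 and 0.848 of the library's median over all windows in Tet2 CKO replicates 2 and 3 on the side of lower coordinates. In the other 5 libraries it was 1.28 to 2.11 of that median. At 200 kb on the same side it was still 0.903 and 0.939 in Tet2 CKO replicates 2 and 3, against 1.18 to 1.64 in the others. The mean of the 2 libraries over the mean of the other 5 was 0.400 in the median neighbour at 10 kb and 0.514 at 200 kb, against 0.745 over all windows. Of the windows exactly 10 kb and 200 kb away, 13.3% and 7.78% were low themselves, against 4.03% of all. The sharp step from the low window to its neighbour is fixed by the choice of the low windows, whereas the level of the neighbours is not.

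**Figure D4:**
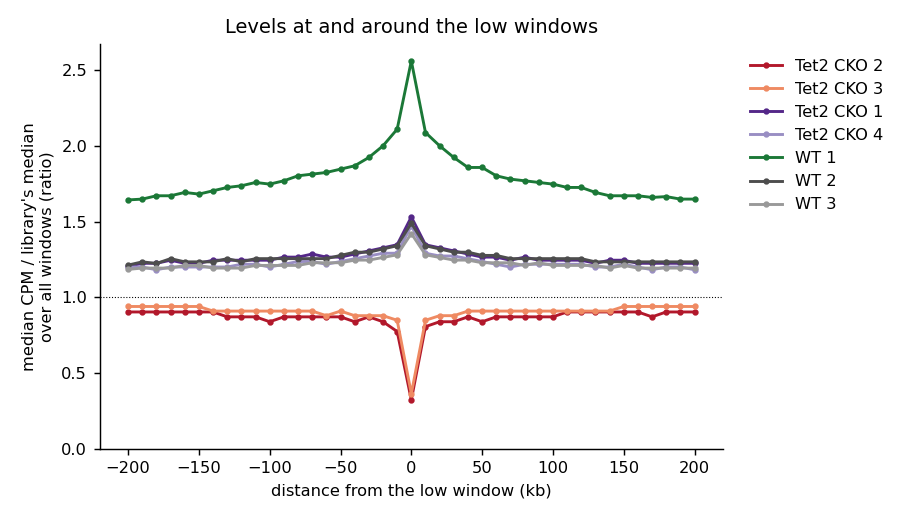
Median CPM of each library at and around the low windows, divided by that library's median over all windows kept (dotted line at 1), by distance in kb. Windows that are low themselves are left out except at distance 0. Tet2 CKO 2 and 3 stay below 1 out to 200 kb, and the other 5 libraries stay above it, WT 1 the highest at 2.56 in the low windows and 1.64 at 200 kb.

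Low windows were more frequent among windows where the other libraries had a high level, which the rule itself favours, since it asks that these libraries lie 3-fold above Tet2 CKO replicates 2 and 3. All windows were divided into 10 equal strata by the mean CPM of Tet2 CKO replicates 1 and 4 and WT replicates 2 and 3. Low windows were 0.374% of the poorest stratum (median 1.78 CPM) and 11.9% of the richest (median 8.17 CPM). The medians of Tet2 CKO replicates 2 and 3 over all windows of these strata were 1.97 and 1.82 CPM in the poorest and 4.22 and 4.39 CPM in the richest. In WT replicate 1 they were 1.21 and 10.1 CPM. The range was thus narrow in Tet2 CKO replicates 2 and 3 and wide in WT replicate 1. Richer windows also hold more reads, and low windows were 0.996% of the lowest and 9.11% of the highest stratum of mean raw count, so the part of depth in this trend was not tested. The mirror-image windows, with Tet2 CKO replicates 2 and 3 at least 3-fold above the highest of the other 5, also became more frequent, with 0.132% in the poorest stratum of level and 0.934% in the richest.

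The 5 low windows with the most reads are examples of the rich end. The window on chromosome 1 at 90150001 to 90160000 had 3.50 and 4.97 CPM in Tet2 CKO replicates 2 and 3, against 31.7 and 31.9 CPM in Tet2 CKO replicates 1 and 4, and 48.6, 37.2 and 39.1 CPM in WT replicates 1, 2 and 3. These were 39 and 60 reads in Tet2 CKO replicates 2 and 3, against 398 to 1403 reads in the others. The window on chromosome 11 at 5060001 to 5070000 had 7.89 and 5.22 CPM, against 42.3 and 28.1 CPM in Tet2 CKO replicates 1 and 4, and 33.7, 35.1 and 36.2 CPM in WT replicates 1, 2 and 3. The window on chromosome 4 at 141020001 to 141030000 had 1.53 and 1.49 CPM, against 12.9 and 12.3 CPM in Tet2 CKO replicates 1 and 4, and 43.1, 18.1 and 14.6 CPM in WT replicates 1, 2 and 3. In the last of these, WT replicate 1 alone is far above the remaining 4 libraries. The other 2 windows lay on chromosome 10 at 80610001 to 80620000 and on chromosome 5 at 144010001 to 144020000.

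At the other end were 16 low windows with 0 reads in both Tet2 CKO replicates 2 and 3. The one with the most reads elsewhere, picked after its values were seen, lay on chromosome 11 at 60290001 to 60300000. It had 0 and 0 reads in Tet2 CKO replicates 2 and 3, against 46 and 68 reads in Tet2 CKO replicates 1 and 4, and 401, 122 and 114 reads in WT replicates 1, 2 and 3. Set against a floor of 3 reads per library, or 0.269 CPM, the mean of 8.07 CPM in the other 5 was 29.97-fold higher. Over the 16 windows this fold ran from 6.60 upward. It covers counting error only and is no lower bound here, since these windows were picked for their 0 reads. The window 10 kb before it had 53 and 65 reads in Tet2 CKO replicates 2 and 3, and the window 10 kb after it 22 and 20 reads. The absence of reads was thus limited to 1 window, but a low level was not. The window 20 kb before it had 0.359 and 0.580 CPM in Tet2 CKO replicates 2 and 3, against 3.36 to 7.21 CPM in the other 5. The windows 10 kb and 20 kb after it were also below all 5. In the window 10 kb before it, Tet2 CKO replicate 3 was above WT replicate 3, at 5.39 against 4.92 CPM. The windows named with the one at 60290001 lay on chromosome 10 at 113940001 to 113950000, on chromosome 11 at 34820001 to 34830000, on chromosome 14 at 29720001 to 29730000 and on chromosome 15 at 91990001 to 92000000, each with at most 112 reads in any library.

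The bound of the rule cuts through a continuous range. Just inside it, the window on chromosome 19 at 26790001 to 26800000 had 2.33 and 0.663 CPM in Tet2 CKO replicates 2 and 3, against 6.998 to 12.0 CPM in the other 5. Just outside it, the window on chromosome 14 at 31950001 to 31960000 had 2.06 and 2.65 CPM in the 2 libraries, against 7.96 to 26.6 CPM in the others. With a bound of 2-fold in place of 3-fold, 26018 windows were low, and with 4-fold 3645. Both libraries lay below all 5 others by any margin in 81035 windows, or 35.7% of those kept. The scale mattered as much. With TMM factors, which rescale each library so that most windows agree, 4151 windows were low, and with the high-count bins kept in the totals 38684 were. Under TMM each of the 9151 low windows had both libraries below all 5 others, at no more than 0.439 of the lowest. This was fixed in advance and is no second check. TMM applies 1 factor per library, and these ran only from 0.838 in Tet2 CKO replicate 3 to 1.10 in WT replicate 3.

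WT replicate 1 was the library that differed most from Tet2 CKO replicates 2 and 3 in the low windows. It was the highest of the 5 other libraries in 61.0% of them (Wilson 95% interval 60.03% to 62.03%, counting windows as independent, which neighbours are not) and in 21.8% of all windows. Each of the other 4 was the highest in 8.20% to 11.2% of the low windows. The rule uses WT replicate 1 where it is the lowest, so windows were also chosen without it. In the 9632 windows chosen that way WT replicate 1 was the highest of the 5 in 58.0%, against 21.8% of all windows, and its median was 1.34 times the mean of the other 4, against 0.844 over all windows. The same exercise with Tet2 CKO replicate 1, Tet2 CKO replicate 4, WT replicate 2 or WT replicate 3 left out gave medians of 0.883, 0.846, 0.838 and 0.810 times the mean of the 4 remaining libraries. Over all windows these medians were 0.991, 1.003, 0.993 and 1.01. The choice asks that the 4 remaining libraries be high, which lowers the ratio of the library left out. WT replicate 1 thus lay at the opposite end from Tet2 CKO replicates 2 and 3, and the other 4 libraries lay between. It is also the library with the most autosomal reads and the smallest share of reads in high-count bins, and the part of either in this result was not tested.

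**Figure D5:**
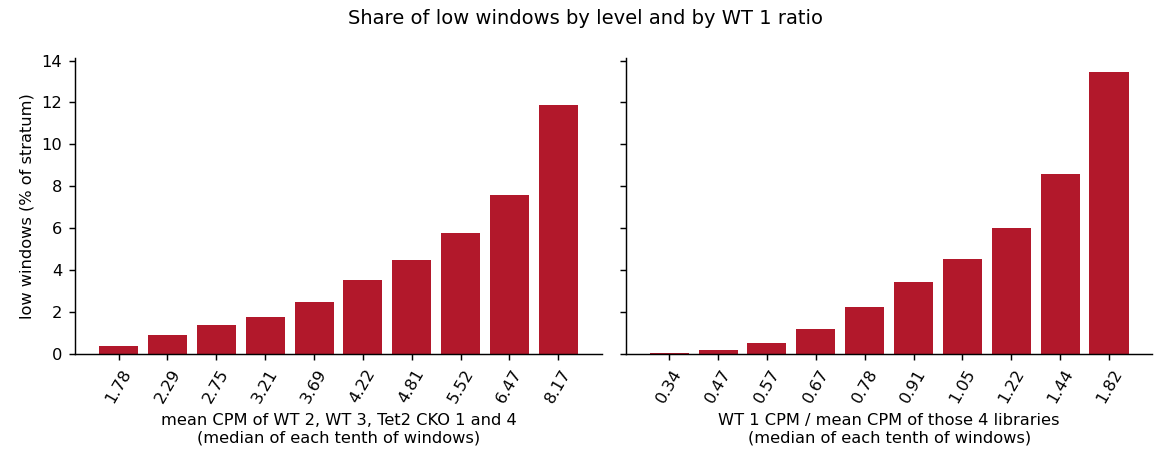
Share of low windows in 10 equal strata of all windows, by the mean CPM of WT 2, WT 3, Tet2 CKO 1 and Tet2 CKO 4 (left) and by the CPM of WT 1 over the mean of those 4 (right), with each stratum's median on the axis. The share climbs to 11.9% in the richest stratum and to 13.5% where WT 1 is highest relative to the 4, where the rule itself asks that WT 1 be at least 3-fold above Tet2 CKO 2 and 3.

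The genotype comparison asked whether the low windows differ between Tet2 CKO and WT. Over all 7 libraries, edgeR's quasi-likelihood test called 0 of the 9151 low windows at adjusted p under 0.05, against 0% of the 253978 windows tested. At unadjusted p under 0.05 it had 1430 low windows lower in Tet2 CKO (15.6%), where 3.71% of all windows were lower, and 0 higher, where 9.77% of all were. DESeq2 with a local dispersion trend called 1 low window, where it called 0.0125% of all windows lower. The median log2 fold change was -0.95 in the low windows and 0.010 over all windows. 2 of the 4 Tet2 CKO libraries chose the windows by being low, so this difference is a description. The count of 1430 moved with single libraries: it was 123 without WT replicate 1, where 0.807% of all windows were lower. It was 300 without Tet2 CKO replicate 2 and 256 without replicate 3, where 1.49% and 1.47% of all windows were. Without Tet2 CKO replicate 1 it was 5069 and without replicate 4 it was 4482, where 8.34% and 7.35% of all windows were. With the replicate number as a block, the fit compared Tet2 CKO replicates 1, 2 and 3 with WT replicates 1, 2 and 3, and it called 7425 low windows lower (81.1%), where 9.57% of all windows were. In that fit 2 of the 3 pairs hold a library that chose the windows.

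The comparison of Tet2 CKO replicates 1 and 4 with WT replicates 1 to 3 leaves those 2 libraries out, and the rule treats its 5 libraries alike. The rule does exclude windows where any of the 5 came near Tet2 CKO replicates 2 and 3. This can narrow differences among the 5, so few calls here cannot be read as likeness of the groups. edgeR called 0 of the 9151 low windows at adjusted p under 0.05, against 0% of all windows, and DESeq2 called 0 of them as well, where it called 0.000787% of all windows lower. At unadjusted p under 0.05 edgeR had 124 low windows lower in Tet2 CKO (1.36%), where 1.72% of all windows were lower, and 14 higher (0.153%), where 1.69% of all were. The median log2 fold change was -0.25 in the low windows and -0.031 over all windows, and 77.7% of the low windows and 52.7% of all were below 0. This lean rested on 1 library: without WT replicate 1 the median was 0.056 in the low windows and 0.002 over all, and 43.0% of the low windows were below 0. At unadjusted p under 0.05 there were then 79 low windows lower, where 2.24% of all windows were, and 194 higher, where 2.35% of all were. The count of lower windows was 23 without Tet2 CKO replicate 1 and 21 without replicate 4, where 1.45% and 1.7% of all windows were lower. Without WT replicate 3 there were 257 lower and 9 higher, where 1.98% and 2.46% of all windows were. The CPM of Tet2 CKO replicates 1 and 4 over that of WT replicates 2 and 3 was 1.04 in the median low window and 0.998 over all windows.

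The low windows with the smallest p in this comparison show how far single windows went. The window on chromosome 8 at 97010001 to 97020000 had 2.47 and 2.01 CPM in Tet2 CKO replicates 1 and 4, against 8.10, 5.82 and 5.89 CPM in WT replicates 1, 2 and 3, a log2 fold change of -1.67 (SE 0.47; edgeR adjusted p = 0.9999). Tet2 CKO replicates 2 and 3 had 0.449 and 0.580 CPM there, and the rule fixes them below every other library. All 4 Tet2 CKO libraries thus lay below all 3 of WT, but only the place of replicates 1 and 4 was not set by the rule. The window on chromosome 11 at 60290001 to 60300000, given above for its 0 reads, had a log2 fold change of -1.42 (SE 0.51), and that on chromosome 19 at 41800001 to 41810000 one of -1.24 (SE 0.46), or -0.57 without WT replicate 1. In the other direction, the window on chromosome 3 at 42160001 to 42170000 had 3.35 and 3.44 CPM in Tet2 CKO replicates 1 and 4, against 1.04, 0.984 and 1.45 CPM in WT replicates 1, 2 and 3, a log2 fold change of 1.47 (SE 0.56; edgeR adjusted p = 0.9999). Tet2 CKO replicates 2 and 3 had 0 reads there, below WT as the rule asks, so the Tet2 CKO libraries lay on both sides of WT. The windows on chromosome 11 at 91290001 to 91300000 and on chromosome 5 at 152020001 to 152030000 had log2 fold changes of 1.34 (SE 0.55) and 1.05 (SE 0.43). None of the 6 passed the threshold in the 5-library comparison, and they were picked by p from these libraries.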

How the data were processed

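The table the authors deposited gives raw, unnormalized read counts for 4 Tet2 CKO and 3 WT libraries in 5451548 bins of 500 bp. Per the submitters' processing notes the tools were Bowtie2, HOMER and DESeq2, and the build was mm9. Neither versions nor roles were given in the sources used here. Capture used an Active Motif 5hmC antibody and Illumina sequencing, per the labels' protocols. Input libraries were not analysed here.

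The rule for the low windows dropped autosomal bins with a mean raw count above 100, summed bins to 10 kb windows by start and kept windows averaging 20 reads or more. CPM used each library's autosomal total after the drop. The low windows, the named regions and the tests were chosen with earlier results of these data known. Named were the 8 longest domains, the 5 low windows with the lowest ratio (ties at 0 taken in order of position name) and the 5 with the most reads, windows just inside and outside the bound, the 3 with the smallest p in each direction of the 5-library test, and the 3 fullest blocks of 1 Mb.

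Counts of all chromosomes, in windows averaging 10 reads or more, entered edgeR 4.0.16 under R 4.3.3 (TMM, quasi-likelihood, two-sided, Benjamini-Hochberg over all windows), with DESeq2 1.42.0 as an alternative. All 9151 low windows passed that filter. The SE of a log2 fold change came from the F statistic. The fit was tested first on simulated data with a common dispersion and no library profile like that of Tet2 CKO replicates 2 and 3. That test therefore does not show how well the fit finds differences in these libraries. Python 3.11.15 with pandas 2.3.3, numpy 2.4.6 and scipy 1.17.1 gave the other values. P-values measure the spread between libraries, which may be technical, and intervals and floors cover counting error only, since the labels name no molecular identifiers. Same-numbered libraries deviated together from their group means (r = 0.548, 0.298 and 0.341 for numbers 1, 2 and 3, all above 0.1). Libraries of unlike number were not compared, so these values cannot tell pairing from a profile shared across numbers. The labels' numbers were used as pairs in the replicate-block fit only, and the other fits had no covariate. Sequences and gene names are not used here, since the reference tables follow GRCm38.p6 rather than mm9.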

Additional observations from a re-analysis of the deposited data

How the results depend on the processing

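The number of low windows depended on the bound, the scale and the window size. A 2-fold bound gave 26018 low windows, 4786 domains of 2 or more windows and a longest domain of 120 kb, and a 4-fold bound gave 3645 windows and 217 domains. Keeping the high-count bins gave 38684 windows, 7756 domains and 200 kb, and TMM-scaled CPM gave 4151 windows and 258 domains. Windows of 20 kb and 5 kb gave 3161 and 25134 low windows. Joining low windows up to 20 kb apart gave 1671 domains and 230 kb. Leaving out 1 library gave 9632 to 24815 low windows, 1036 to 4155 domains and a longest domain of 60 to 110 kb, with the high ends where Tet2 CKO replicate 3 was left out, since then 1 library had to be low. Without Tet2 CKO replicate 2 there were 21395 low windows and 3240 domains. Minimum counts of 10 or 40 and bounds of 50 or 200 for dropped bins stayed within 1.5 times of the 3 main values. The share of low windows with WT replicate 1 highest was 70.6% under TMM and 58.0% with WT replicate 1 not used in the choice, an alternative added after the data were seen. Held-out bins gave 0.208 when the bins were exchanged. The count of low windows called over 7 libraries was 0 in each edgeR fit without the block, 1 in DESeq2 and 7425 with the replicate block, whose median log2 fold change was -1.62. Scaling by library size alone moved the median of all windows to -0.52. Over 5 libraries the count was 0 in each fit, no paired analysis was possible because the groups share 1 number only, and the median ranged from -0.37 to 0.056 with 1 library left out, positive without WT replicate 1. With 1 Tet2 CKO library left, that library is assumed to vary like WT. Over the fits with at least 2 libraries per group, the adjusted p of the 6 windows named from that test ranged from 0.412 (DESeq2) to 0.999999 (edgeR). Their log2 fold changes were reversed in 0 of 66 readings, which are 6 windows in the same 11 alternative fits. These windows were picked by p, with Tet2 CKO replicates 1 and 4 on 1 side of all 3 WT libraries. The kept sign is therefore a description and no support. The median low window held 10 and 12 reads in Tet2 CKO replicates 2 and 3, which limits how well its fold is known.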

Other observations

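The mirror-image windows, in which both Tet2 CKO replicates 2 and 3 were at least 3-fold above the highest of the other 5 libraries, numbered 880. Of them, 540 (61.4%) lay in the 688 blocks of 1 Mb without a low window, which held 25.9% of the windows kept, and 340 (38.6%) lay in 265 blocks that hold low windows too. Of the 264 blocks with 10 or more low windows, 7 (2.65%) held such a high window, against 592 of all 2417 blocks (24.5%). A high window lay within 100 kb of 77 low windows (0.841%), against 6.03% of all windows kept. The share of high windows was 0.534% in the first 10% of the chromosome length and 0.156% in the last 10%, against 2.20% and 6.71% for low windows, and by chromosome it was lowest on chromosome 11, at 0.209%, where that of low windows was highest. Both lists come from the same 7 libraries and exclude each other by construction, so these are descriptions without a test.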
